A study of Mus musculus with 2 samples.

Results

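Mesonephric mesenchyme nuclei were defined as the 350 nuclei, of 7492 kept and 9833 deposited, in which the largest share of RNA came from *Ntrk3*, *Rxfp2*, *Itga8*, *Osr1*, *Meox1*, *Zfp804a* and *Col8a1*. They made up 4.67% of the kept nuclei, and the other 7142 kept nuclei are called the rest. Whole testes of male mouse embryos at E14.5 were profiled with the 10x multiome assay, which reads RNA and open chromatin from the same nucleus. Every embryo carried *Nr5a1*-cre and *Rosa*-tdTomato, and no control genotype or second time point was compared. *Nr5a1*-cre acts in steroidogenic and supporting gonadal cells, and its reporter took no part in choosing nuclei. The sources used here do not give the number of embryos pooled, nor do they say whether the mesonephros was left on these testes. There was 1 RNA library and 1 ATAC library, with no replicate, so no test between samples was possible. Each interval below is a 95% interval, and none covers variation between samples. Intervals of levels and ratios cover counting error only. Intervals of shares take genes, peaks or nuclei as independent draws and leave out the counting error behind each call. The members were chosen by their RNA, so all RNA values are a description of the choice and of what came with it, whereas chromatin had no part in the choice beyond a minimum number of cuts at peaks.

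The mesonephros is the transient embryonic kidney that lies along the gonad, and in males its tubules and duct become the efferent ductules, epididymis and vas deferens. Its mesenchyme surrounds these epithelia, instructs their growth through secreted signals and matrix, and borders the gonad at the rete and along the ligaments that hold the testis. Mesenchymal cells of this kind are known for making fibrillar collagens, for homeobox factors that set position along the body axis, and for guidance and Wnt signals exchanged with the neighbouring epithelium.

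All 9833 deposited barcodes were found in both libraries, since RNA and chromatin were read from the same nuclei. The libraries held 122049390 unique molecular identifiers (UMIs, each counting 1 captured RNA molecule) and 54712501 unique fragments in these barcodes. Filters left out 259 barcodes under 2000 UMIs, 200 over 50000 UMIs, 972 with 10% or more of UMIs in mitochondrial genes and 1198 with 500 or fewer cuts at peaks, some on several counts. The members had a median of 6672.5 UMIs (quartiles 5120 and 9024) and the rest 8335.5. They held 2848674 UMIs and a median of 4500 fragments per nucleus, against 4611.5 in the rest. A doublet score ranked 14 members (4%, exact binomial interval 2.20 to 6.62%) among likely doublets, against 6.09% of the rest. The number of nuclei so ranked was fixed in advance, at an assumed 0.8% per 1000 kept. Neither share is therefore a measured doublet rate. Further sets of nuclei, built by the same ranking on other markers and without the members, are called by those markers: interstitial progenitor (333 nuclei), contractile (294), surface epithelium (333), Leydig (348), Sertoli (335), germ (350), pericyte (53), endothelial (60), immune (58) and erythroid (56).

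The label rests on 5 of its 7 markers. *Itga8*, an integrin subunit of kidney and smooth muscle mesenchyme, gave 2919 UMIs in the members and 35.6% of the marker UMIs. *Ntrk3*, the receptor of neurotrophin 3, gave 2573 UMIs (31.4%), and *Zfp804a*, a zinc finger gene, 1311 (16.0%). *Col8a1*, a short-chain collagen, and *Rxfp2*, the receptor of the testicular descent hormone INSL3, gave 700 and 652 UMIs. *Osr1*, a transcription factor of the early intermediate mesoderm, gave only 48 UMIs in 41 members, and *Meox1*, a homeobox gene of paraxial mesoderm, 3 UMIs in 3 members. Both were therefore nearly absent, and the nuclei are called by the label with that limit.

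Levels of the chosen markers, in UMIs per 1000000 UMIs of the set (CPM), were far apart by construction. *Ntrk3* stood at 903 CPM in the members and 17.8 in the rest, *Itga8* at 1025 and 41.9, *Zfp804a* at 460 and 6.11, *Col8a1* at 246 and 8.18, and *Rxfp2* at 229 and 4.17. With each nucleus thinned to 2000 UMIs, 66% of members and 2.56% of the rest had a UMI of *Ntrk3*, against 0.571% of the germ set, which should lack it. Before thinning the shares were 80.3% of members, at a median of 6672.5 UMIs, and 1.71% of the germ set, at 13449 UMIs. *Itga8* had a UMI in 70.6% of thinned members, 6.40% of the rest and 0.286% of the germ set.

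A marker could be read without having chosen the nuclei by ranking on the other 6 markers and taking the first 350 again. *Zfp804a* was then 32.6 times as high in those nuclei as in the rest (29.7 to 35.8), *Rxfp2* 28.1 times (24.7 to 32.0), *Ntrk3* 21.3 times (20.03 to 22.7), *Col8a1* 18.9 times (16.9 to 21.1) and *Itga8* 12.3 times (11.65 to 12.96). Each of these 5 was thus high in nuclei that the other markers chose. The markers had been picked with earlier results of these data known, so this describes how they go together and is no independent support. *Osr1* reached 6.15 times (4.31 to 8.61) on 43 UMIs. *Meox1* reached 2.36 times, and its interval of 0.464 to 7.51 held 1. The lists shared 276 nuclei with the members when *Itga8* was left out, 283 when *Ntrk3* was left out, and between 330 and 350 in the other cases.

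No gap in the ranking separated the members from the rest. The first nucleus had 1.23% of its UMIs in the markers (94 of 7617), rank 175 had 0.254%, rank 350 had 0.1289% (7 of 5432) and rank 351 had 0.1286% (11 of 8551). Of the 7 markers, 54 members showed 1, 93 showed 2, 97 showed 3, 66 showed 4, 37 showed 5 and 3 showed 6. *Itga8* was the most abundant marker in 151 members, *Ntrk3* in 122 and *Zfp804a* in 43, where 1 nucleus held 170 of its 1311 UMIs.

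The plot by rank sets the ranking beside chromatin and beside genes that did not enter the choice. Fragments at the 66 peaks in the bodies of the 7 marker genes stood at 588 per 1000000 fragments at peaks (FPM) in ranks 1 to 50, 684 in ranks 51 to 100 and 454 in ranks 301 to 350. They stood at 373 in ranks 351 to 400, at 422 in ranks 551 to 600 and at 266 in all later ranks. The 20 leading genes described next, summed, went from 16889.7 CPM in ranks 1 to 50 to 7187 in ranks 301 to 350 and 6501 in ranks 351 to 400. Leydig markers stood at 266 to 343 CPM in ranks 1 to 250, at 650 in ranks 251 to 300, at 843 in ranks 301 to 350 and at 429 in ranks 351 to 400. Endothelial markers, a list that also holds *Emcn* of the 20 leading genes, stood at 481 CPM in ranks 1 to 50. They stood at 167 in ranks 301 to 350 and at 303 in ranks 351 to 400. The part of either in this gradient was not tested.

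Of 11016 genes with at least 500 UMIs, 371 were at least 2 times as high in the members as in the rest, which is 3.37% of genes tested, and 1234 were at 0.5 times or less, 11.2%. Both counts use CPM + 1, the RNA chose the nuclei, and nothing is read from the counts themselves. Of the 371, 13 had under 500 UMIs in the rest and met the minimum only with the members' own UMIs. The median gene stood at -0.21 on the log2 scale.

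*Angpt1*, the ligand that steadies blood vessels through the TEK receptor, had the highest ratio of the genes with at least 500 UMIs that did not enter the choice, at 668 CPM in the members and 34.8 in the rest, 19.2 times as high (18.1 to 20.4). The pericyte set came next at 329 CPM and the contractile set had 60.8. *Kcnt2*, a sodium-activated potassium channel, stood at 566 against 79.1 CPM, 7.15 times as high (6.77 to 7.56), with 573 in the pericyte set. For both genes the pericyte set was the nearest to the members.

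*Il1rapl1*, a synaptic adhesion molecule, stood at 2610 CPM in the members and 294 in the rest, 8.89 times as high (8.65 to 9.12), and the contractile set had 767. *Epha3*, an ephrin receptor of mesenchyme and growth cones, stood at 2026 against 275 CPM, 7.37 times as high (7.15 to 7.58), with 1017 in the pericyte set and 692 in the interstitial progenitor set. *Ror1*, a receptor of WNT5A, stood at 1555 against 232 CPM, 6.69 times as high (6.47 to 6.92), and had a UMI in 93.4% of members. *Tenm2*, an adhesion molecule of synapses, stood at 374 against 50.3 CPM, and *Brinp1*, a gene of the nervous system, at 129 against 11.6. The phosphodiesterase genes *Pde10a* (812 against 103 CPM, and 362 in the Leydig set) and *Pde7b* (327 against 46.8 CPM, and 447 in the endothelial set), which break down cyclic nucleotides, were also among the 20 leading genes.

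*Foxp2*, a forkhead factor of brain and lung just outside the 20, stood at 919 CPM against 143, 6.44 times as high (6.17 to 6.72). Interstitial progenitors had 33.8 CPM, the contractile set 69.4 and the surface set 112, whereas the germ set had 359. Of the 20, *Postn*, the matrix protein periostin, stood at 123 against 12.9 CPM, *Col12a1*, a fibril-associated collagen, at 136 against 16.0, and *Fap*, a fibroblast protease, at 105 against 11.8. The pericyte set was close for *Fap*, at 96.4 CPM, and low for *Postn*, at 24.99. In 17 of the 20 genes the members had the highest level of the 11 sets. *Emcn*, *Kcnt2* and *Pde7b* were the exceptions. The 20 were picked by their ratio to the rest, which favours this. Among all 371 genes called higher, the members led in 189.

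**Figure D1:**
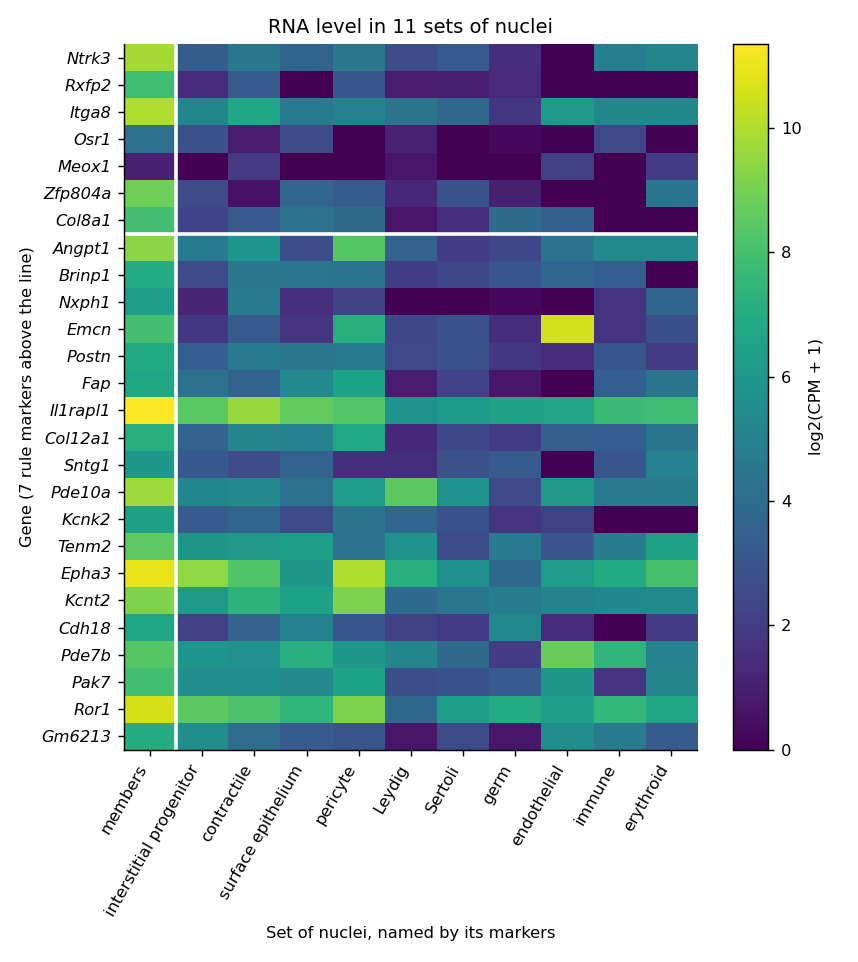
Heat map of log2(CPM + 1) from UMIs summed per set, 1 library, with the 7 marker genes above the line and leading genes below it, and the members in the first column beside the 10 other sets. *Angpt1* stands at 668 CPM in the members and 329 in the pericyte set, and *Emcn* has its highest level, 1541 CPM, in the endothelial set.

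*Emcn*, the endothelial sialomucin endomucin, stood at 246 CPM in the members and 25.2 in the rest, yet most other vessel genes were lower. *Flt1*, a receptor of vascular endothelial growth factor, stood at 1.76 CPM against 27.6, *Pecam1* at 4.92 against 24.5, *Tek* at 8.43 against 22.4 and *Cdh5* at 5.97 against 13.9. *Kdr* stood at 35.5 against 20 CPM. The 6 endothelial markers summed to 303 CPM in the members, 134 in the rest and 6158 in the endothelial set, so the excess in the members was *Emcn*, with 183 members holding a UMI of it.

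The leading genes were not spread evenly over the members. The 35 members with most UMIs of a gene held 27.3% of the UMIs of *Ror1*, 28.4% of those of *Slit2*, 32.7% of those of *Il1rapl1* and 37.9% of those of *Angpt1*. At the other end, *Nxph1*, a ligand of neurexins, and *Sntg1*, a syntrophin, had all their UMIs in 35 members each, and *Cdh18*, a cadherin, had 94.7% of its UMIs in the top 35. *Zfp804a* (71.4%), *Col8a1* (73.7%) and *Pde10a* (72.2%) lay between. In 12 of the 20 leading genes the top 35 members held 50% or more of the UMIs. This measure was added after the values were seen.

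Urogenital transcription factors were described over a list of 51 genes, of which 34 were tested. In the members 8 were higher and 5 lower, beside 3.37% higher and 11.2% lower of all genes tested. The median log2 ratio was 0.23, against -0.21 over all genes tested. *Meis2* and *Meis1*, partners of Hox proteins, stood at 2542 against 537 CPM (4.73 times, 4.61 to 4.85) and at 2370 against 577 (4.11 times, 4.003 to 4.215). The contractile and surface sets also held *Meis2*, at 1819 and 1673 CPM. *Twist2*, a factor of mesenchyme, stood at 73.0 against 12.7 CPM, *Nr2f1* at 55.1 against 11.8, *Prrx1*, a limb and facial mesenchyme factor, at 110 against 28.6, *Maf* at 250 against 122 and *Foxp1* at 851 against 420.

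The 5 lower factors of the list stand beside 11.2% lower of all genes tested. *Gata4*, needed for the genital ridge, stood at 185 CPM against 609, 0.304 times as high (0.279 to 0.331), while interstitial progenitor, contractile and surface sets stood between 620 and 623. *Nr5a1*, the master factor of steroidogenic and supporting cells, stood at 28.8 against 83.7 CPM (0.344 times, 0.273 to 0.427), and the interstitial progenitor set had 25.6. The transgene uses *Nr5a1* sequence, and whether it adds counts there was not tested. *Osr2*, *Eya1* and *Sox6* were also lower. *Wt1*, a factor of the urogenital mesenchyme, stood at 493 CPM against 274, and *Nr2f2*, a nuclear receptor of interstitial mesenchyme, at 482 against 279 CPM, both under the fold used. *Tcf21* stood at 46.7 against 33.3 CPM.

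Hox genes give a cell its position along the trunk. Of 23 genes of paralogue groups 1 to 8, 10 were tested, 3 were higher and none lower, with a median log2 ratio of 0.71. This list summed to 405 CPM in the members and 291 in the rest. It was higher in the interstitial progenitor (498), contractile (525) and surface (556) sets. The members had the highest level of the 11 sets in 2 of the 10 genes. The Hox counts stand beside 3.37% higher and 11.2% lower of all genes tested. *Hoxa3* stood at 43.5 against 9.42 CPM (4.62 times, 3.79 to 5.6), *Hoxb3* at 26.0 against 6.05 and *Hoxb6* at 19.3 against 7.87. *Hoxb3* had 461 UMIs in the rest and met the minimum of 500 only with those of the members, where it is high. Of 16 genes of groups 9 to 13, 4 were tested, and neither direction held any at this fold, with a median log2 ratio of -0.10. Their ratios ran from 0.527 for *Hoxb9* (0.3 to 0.862) to 1.31 for *Hoxd11* (0.897 to 1.86), and *Hoxd9* stood at 19.0 CPM in the members and 21.7 in the rest. Ratios are within a gene, and levels were not compared between genes of different length.

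Collagens, the fibres and sheets of connective tissue, formed the pathway list with the largest share of higher genes. Of 32 tested, 17 were higher, the chosen *Col8a1* among them, and 3 lower, with a median log2 ratio of 1.08. Over all genes tested 3.37% were higher and 11.2% lower, and 3 of 32 is near the latter share. *Col3a1*, a fibrillar collagen, stood at 1322 against 537 CPM (2.46 times, 2.38 to 2.54), *Col1a2* at 967 against 445, *Col5a2* at 586 against 221 and *Col1a1* at 398 against 162. The contractile set stood at 1373 CPM for *Col3a1* and 1068 for *Col1a2*, so fibrillar collagens were as high there. *Col4a5* and *Col4a6*, basement membrane chains whose genes share a promoter region, stood at 549 against 144 and at 327 against 58.0 CPM, and the contractile set had 169 and 66.2. *Col4a1*, of the common basement membrane pair, stood at 295 against 414 CPM and was in neither class. The lower ones were *Col25a1*, *Col9a3* and *Col22a1*.

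Of other matrix genes 11 of 36 tested were higher and 2 lower, with shares over all genes of 3.37% and 11.2%. The list had a median log2 ratio of 0.65. It summed to 5608 CPM in the members and 3722 in the rest. The interstitial progenitor (5685), surface (5756) and contractile (6112) sets were no lower than the members. *Lum*, a proteoglycan of collagen fibrils, stood at 76.5 against 11.96 CPM, *Ogn* at 49.2 against 16.9, *Dcn* at 396 against 165 and *Has2*, a hyaluronan synthase, at 34.8 against 5.93. *Has2* had 452 UMIs in the rest and met the minimum only with those of the members. Among laminins, integrins and nephronectin, a list that does not hold *Itga8*, a marker that chose the nuclei, 1 of 26 tested was higher and 7 lower. *Itga11*, a collagen receptor subunit, was the higher one, at 37.2 against 8.38 CPM. *Npnt*, the nephronectin ligand of the integrin that ITGA8 forms, stood at 3.16 against 7.78 CPM, and *Itga6* and *Itga4* were lower too.

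The counts of this and the lists that follow stand beside 3.37% higher and 11.2% lower of all genes tested. Guidance genes steer migrating cells and axons. Of 36 tested, 14 were higher and 6 lower. Among ligands, *Slit2* reached 7764 CPM against 2434 (3.19 times, 3.15 to 3.24), and the interstitial progenitor set had 7628 CPM, close to the members. Its receptor gene *Robo2* went the other way, at 1464 against 3569 CPM, with 7308 in the interstitial progenitor set. *Sema3d* stood at 483 against 101 CPM and *Sema3a* at 555 against 136, and the surface set was higher than the members for both, at 882 and 1300. *Sema3c* was lower, at 107 against 238 CPM. Among receptors, *Epha6* stood at 619 against 100 CPM, *Unc5c* at 1995 against 852, *Nrp2* at 90.6 against 22.0 and *Dcc* at 418 against 93.1.

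Wnt signalling genes went in both directions. Of 28 tested, 7 were higher and 6 lower, with a median log2 ratio of 0.19. Among ligands and their enhancers, *Wnt4*, a signal of kidney and gonad mesenchyme, stood at 113 against 38.9 CPM (2.90 times, 2.58 to 3.25), *Rspo3* at 80.7 against 14.4 with 111 in the surface set, and *Rspo1* at 22.5 against 9.47. The ligand gene *Wnt6* was lower, at 12.6 against 31.4. Receptor genes *Ror2* (404 against 144 CPM, and 389 in the contractile set) and *Fzd4* (21.1 against 8.20) were higher beside *Ror1*. Their ligand gene *Wnt5a* stood at 220 against 248 CPM, and the contractile set had 578. Among the transcription factors that end the pathway, *Tcf7l1* was higher (392 against 186 CPM), and *Lef1* (16.5 against 72.9) and *Tcf7* (5.27 against 15.5) were lower. *Lgr5*, a receptor for R-spondins, stood at 6.32 against 27.9 CPM, *Fzd6*, a receptor gene, at 4.21 against 12.03 and *Rnf43*, an inhibitor that removes receptors, at 1.755 against 11.7, all lower.

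BMP and TGF-beta genes gave 6 higher and 4 lower of 30 tested, and 4 of 30 is near the share of all genes. *Bmp5*, a ligand of mesenchyme, stood at 200 against 40.3 CPM (4.95 times, 4.52 to 5.42) and at 204 in the pericyte set. *Bmper*, a modulator of BMPs, stood at 197 against 46.8, *Tgfb2* at 277 against 127 and the target *Id2* at 27.0 against 7.84. *Bmp7* and the receptor gene *Bmpr1b* were lower, at 3.16 against 11.7 and 54.4 against 115 CPM. In hedgehog signalling, 3 of 13 tested were higher and 1 lower. These were the coreceptor genes *Gas1* (120 against 37.8 CPM, and 141 in the surface set) and *Boc* (232 against 109) and the effector *Gli3* (735 against 311), with 751 for *Gli3* in the contractile set. *Hhip*, a target that binds hedgehog, was lower at 57.9 against 179 CPM, and *Ptch1*, the receptor and target, stood at 337 against 560 CPM.

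Among FGF genes 2 of 14 tested were higher, *Fgfr1* (192 against 75.6 CPM) and *Fgf14*, and 3 were lower. Among Notch genes 1 of 9 was higher, *Maml2* (1009 against 244 CPM, and 1249 in the endothelial set), and among 5 PDGF genes none was called, with *Pdgfra* at 377 against 298 CPM. In retinoic acid metabolism 2 of 11 tested were higher, among them *Rarb* (83.6 against 36.8 CPM), a receptor and target. Both synthesis genes called were lower, *Aldh1a1* at 81.4 against 308 CPM and *Aldh1a2* at 13.3 against 66.9 CPM. Beside the chosen *Ntrk3*, the neurotrophin and GDNF list had 1 of 10 tested higher, *Ntrk2* (29.5 against 11.03 CPM), and 4 lower. The ligand gene of *Ntrk3*, *Ntf3*, stood at 15.5 against 27.7 CPM.

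Hormone receptor genes numbered 14 tested, 2 higher and 5 lower. *Ghr*, the growth hormone receptor gene, stood at 1628 against 562 CPM (2.90 times, 2.81 to 2.99), with 1093 and 1117 in the interstitial progenitor and contractile sets. *Nr3c1*, the glucocorticoid receptor gene, stood at 241 against 108 CPM. *Esr1*, an oestrogen receptor gene, stood at 603 against 312 CPM, just under the fold of 2 on CPM + 1. The receptor genes of Sertoli and Leydig cells were lower, *Fshr* at 2.46 against 43.5 CPM and *Lhcgr* at 58.3 against 155.

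**Figure D2:**
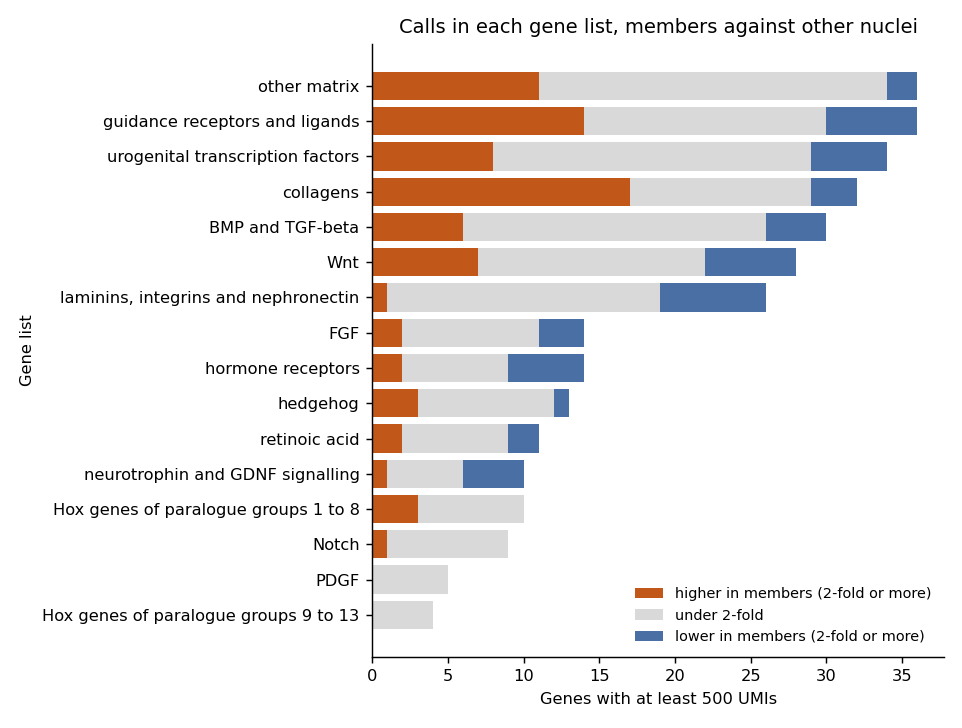
Bars give, for each gene list, the number of genes with at least 500 UMIs that were higher in the members (orange), under 2-fold in either direction (grey) or lower (blue). Collagens have 17 higher of 32, and the laminin, integrin and nephronectin list, without *Itga8*, has 7 lower and 1 higher of 26. Over all genes tested, 3.37% were higher and 11.2% lower.

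Markers of other cells were read over whole lists. Germ markers summed to 40.02 CPM in the members and 365 in the rest, and markers of the mesonephric tubule and duct epithelium to 33.7 against 132 CPM, with *Wnt9b* at 0. The duct list stood at 591 CPM in the germ set, 175 in the surface, 60.6 in the interstitial progenitor and 15.8 in the contractile set. Its level in the rest is therefore not that of duct epithelium alone. Neural and glial markers summed to 24.6 against 39.2 CPM, with *Dbh* and *Isl1* at 0. A count of 0 in the members allows up to 1.05 CPM. Leydig markers summed to 472 against 815 CPM, Sertoli markers to 59.3 against 99.3, immune markers to 13.3 against 27.2, erythroid markers to 122 against 224, surface markers to 197 against 277 and interstitial progenitor markers to 423 against 546. Summed contractile markers (254 against 166 CPM) and pericyte markers (87.4 against 72.2 CPM) were above the rest, but not gene by gene. *Acta2* was called higher, at 50.2 against 21.9 CPM, while *Mylk* stood at 1.48 times and *Myh11* at 0.711 times the rest. The pericyte genes tested had a median log2 ratio of -0.06, with *Cspg4* at 0.960 times and *Mcam* at 0.477 times, and none was called. There were 20 members among the first 350 nuclei by contractile markers. The part of contractile, Leydig and endothelial RNA in the levels given here was not tested.

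With each nucleus thinned to 2000 UMIs, 35.1% of members (30.1 to 40.4%) had a UMI of the division genes *Mki67* or *Top2a*. The rest stood at 36.0%, the interstitial progenitor set at 34.2%, the contractile set at 35.4% and the Leydig set at 11.5%. None of 41 S phase genes tested was higher or lower, and 1 of 51 G2 and M phase genes was lower.

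Against the interstitial progenitor set, 343 of 6762 genes were higher in the members (5.07%) and 284 lower (4.2%). *Foxp2* (919 against 33.8 CPM), *Angpt1* (668 against 24.7) and *Emcn* (246 against 2.60) were among the 8 highest by ratio, with *Limch1*, *Ebf2*, *Nxph1*, *Hs3st4* and *Cdh18*. *Adam23* (81.1 against 1312 CPM) and *Nell1* (69.9 against 783) were lower, but both are markers that chose the other set. *Tll1*, a protease that processes procollagen, stood at 12.3 against 253 CPM, *Bdnf*, a neurotrophin, at 2.46 against 69.3 and *Pcdh15* at 30.9 against 398. *Csmd3*, *Lin7a* and the complement gene *C7* completed the lower group.

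The surface epithelium set gave 415 of 7360 genes higher in the members (5.64%) and 530 lower (7.2%). *Angpt1* stood at 668 against 5.57 CPM, *Lrrtm4*, a synaptic protein, at 512 against 6.56 and *Epha6* at 619 against 13.8. *Muc16*, the mucin of coelomic epithelia, stood at 3.16 CPM against 347, *Gpm6a* at 4.56 against 307 and *Upk1b*, a uroplakin, at 3.16 against 157. *Rgs6*, *Lrp2*, *Ntng2* and *Gm30613* were likewise low in the members.

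Fewer genes parted the members from the contractile set, with 225 of 6686 higher (3.37%) and 172 lower (2.57%). *Ebf2*, a factor of several mesenchymal lineages, had 238 UMIs in the members (83.6 CPM) and 0 of 2219447 in the contractile set, which allows up to 1.35 CPM. It also had 94.96% of its member UMIs in 35 nuclei, and 44 members held any. *Pde10a* stood at 812 against 39.2 CPM and *Rtl4* at 201 against 10.8. Lower were *Myh11*, smooth muscle myosin and a marker that chose the other set (19.3 against 341 CPM), *Zfp536* (22.8 against 277), *Asic2* (30.9 against 219) and *Caln1* (20.7 against 201).

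Chromatin placed the members together although it had not chosen them. For each nucleus the 30 nearest nuclei by peak accessibility were found, and 66.8% of the members' neighbours were members, against 4.67% of all kept nuclei and 2.74% of the neighbours of other nuclei. The median member had 24 members among its 30 neighbours (quartiles 17 and 26), and 273 members (78%) had 15 or more. The mean was lower at later ranks, from 24.96 in ranks 1 to 50 to 13.4 in ranks 301 to 350, 12.78 in ranks 351 to 400 and 3.86 in ranks 551 to 600. For sets chosen the same way on other markers, the share in the same set was 65.1% for Leydig, 56.9% for surface epithelium, 24.3% for the contractile set and 14.6% for interstitial progenitors, all below the members. This share depends on how much of a cell type a set of fixed size takes in. It therefore does not rank the sets by how distinct their chromatin is. Of all the members' neighbours, 4.18% lay in the contractile set and 0.543% in the interstitial progenitor set, where those sets held 3.92% and 4.45% of kept nuclei.

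**Figure D3:**
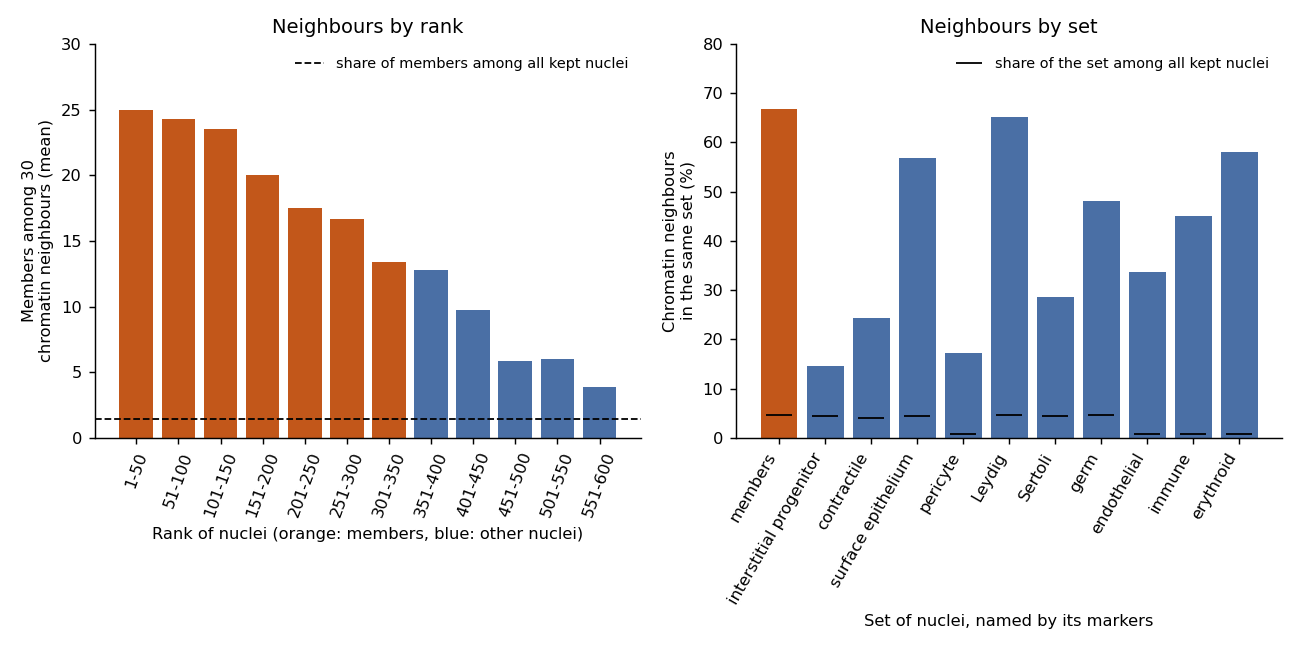
Left, bars give the mean number of members among the 30 nearest nuclei by chromatin, in steps of 50 ranks, with the share of members among all kept nuclei as a dashed line; right, bars give for each set the percent of neighbours in the same set, with short lines for the share of the set among all kept nuclei. The value goes from 24.96 in the first bin to 3.86 in the last without a step at rank 350, and 66.8% of the members' neighbours are members.

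Chromatin and RNA did not mark quite the same nuclei. Of the members, 42 had under 5 members among their neighbours, and 19 had none. In these 42 the 20 leading genes summed to 5036 CPM and Leydig markers to 821 CPM, against 13305.1 and 353 CPM in the 273 members with 15 or more. The 42 had a median of 9526 UMIs and 5 doublet-ranked nuclei, against 6463 UMIs and 7. Outside the members, 144 nuclei had 15 or more members among their neighbours, at a median rank of 605.5. They held the leading genes at 6814 CPM and *Ntrk3* at 189 CPM, against 1187 and 12.9 CPM in the 6810 other nuclei with under 5. Pericyte markers were higher in the 144, at 309 against 60.7 CPM, and their part was not tested. This split was added after the values were seen.

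Fragments in the bodies of the 7 marker genes, over 66 peaks, stood at 542 FPM in the members and 271 in the rest, 2.004 times as high (1.79 to 2.24). The contractile set had 350, the pericyte set 310 and the interstitial progenitor set 268. *Ntrk3* (chr7:78175959-78738012, minus strand, GRCm38) stood at 2.33 times (1.93 to 2.79) on 132 fragments, *Itga8* (chr2:12106632-12301922, minus strand) at 2.31 times (1.84 to 2.86) and *Col8a1* (chr16:57624258-57754737, minus strand) at 2.99 times (2.06 to 4.22). *Meox1* (chr11:101877510-101894374), with almost no RNA, stood at 1.81 times (1.27 to 2.52). The intervals held 1 for *Osr1* (1.41 times, 0.919 to 2.08), *Zfp804a* (1.12 times, 0.504 to 2.17) and *Rxfp2* (0.714 times, 0.353 to 1.29), on 27, 9 and 11 fragments. The last 2 genes had RNA many times that of the rest, and at this depth no difference in their chromatin was detectable.

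Genes called higher in RNA had higher accessibility more often than all genes tested did, which is a description. The fragment minimum counted the members' own fragments, and how many genes met it only with those was not counted. The genes called higher include markers that chose the nuclei, such as *Ntrk3*, *Itga8* and *Col8a1*. Of the 371 called, 13 met the UMI minimum only with the members' own UMIs. Of 346 genes higher in the members with at least 200 fragments in the body, 95 (27.5%, 22.8 to 32.5%) stood at 1.5 times the rest or more, against 2.33% of 10485 genes tested. At promoters, taken as peaks within 1000 bases of a start, 53 of 276 (19.2%, 14.7 to 24.4%) reached 1.5 times, against 2.11% of 9912. Of genes lower in the members, 7 of 830 promoters reached it. The comparison over gene bodies was added after the values were seen.

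Of the 20 leading genes, 16 had 200 body fragments, 7 reached 1.5 times and 14 were above 1, with a median of 1.46. *Kcnt2* was highest, at 149 against 43.4 FPM (3.44 times, 2.74 to 4.27) over 11 peaks, and its promoter stood at 2.36 times (1.56 to 3.44). *Angpt1* stood at 2.09 times (1.47 to 2.89), *Il1rapl1* at 1.94 (1.32 to 2.77), *Col12a1* at 1.88 (1.44 to 2.41) and *Epha3* at 1.69 (1.34 to 2.11). *Kcnk2* was the lowest at 0.624 times, with an interval of 0.347 to 1.04. Leading promoters also included *Rbms3* (2.01 times, 1.63 to 2.46), *Nfix* (1.93 times, 1.60 to 2.31) and *Col6a3* (2.39 times, 1.45 to 3.76). The *Nr2f2* promoter stood at 132 against 85.7 FPM, 1.54 times as high (1.22 to 1.92). For *Meis1* the promoter stood at 0.893 times (0.483 to 1.52), where its RNA was 4.11 times as high.

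Of 17273 peaks with at least 200 fragments, 278 were at least 2 times as open in the members (1.61%) and 915 at 0.5 times or less (5.3%). Of the 278, 84 had under 200 fragments in the rest and met the minimum only with the members' own fragments. Shares of the higher peaks below were taken without leaving out these 84. The count and those shares are therefore a description and no support for an excess. The higher peaks held 17 to 54 fragments each in the members. Other sets of similar size gave 223 to 295 higher peaks, and germ nuclei 759, so the number alone does not stand apart. A share of 75.2% of the higher peaks lay over 1000 bases from any start, against 27.9% of all peaks tested and 52.4% of the lower peaks. In the interstitial progenitor and contractile sets 180 of 223 and 217 of 277 higher peaks were distal and read for motifs. The nearest coding gene was higher in RNA for 51 of 208 (24.5%, 18.8 to 31.0%), against 4.21% of all peaks. For distal peaks alone it was 22.6% against 7.73%. *Col1a1*, *Gas1*, *Ror2*, *Flrt2* and *Nfix* were among the genes with 2 such peaks.

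The sequences of 3 peaks are shown so that intronic and intergenic stretches with an excess of open chromatin in the members can be read for motifs. They come from 12 peaks picked after the values were seen, as those with at least 20 fragments in the members and the highest lower bound. Of the 12, 7 had under 200 fragments in the rest and met the minimum only with the members' own, so their ratios are a description. Peak p1 (chr14:22760098-22760993, GRCm38) lies in an intron of *Lrmda* and stood at 76.8 against 16.5 FPM, 4.65 times as high (3.35 to 6.35), with 37.9 in the contractile set. Peak p4 (chr1:12008679-12009622) is intergenic, 594169 bases from the nearest coding start, and stood at 67.4 against 16.4, 4.10 times (2.89 to 5.69), with 20.95 in the interstitial progenitor set, 17.04 in the Sertoli, 13.8 in the contractile and 7.82 in the surface set. Peak p5 (chr13:53204921-53205789) lies in an intron of *Ror2*, 79759 bases from its start, and stood at 54.9 against 13.7, 4.01 times (2.71 to 5.76), beside the higher RNA of that gene.

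The central 300 bases of each peak, plus strand of GRCm38, read 5′ to 3′ as follows, with capitals for every match to a searched motif. In p1 (chr14:22760396-22760695) the capitals are RUNX and SOX matches. In p4 (chr1:12009001-12009300) they are SOX and posterior HOX matches, and in p5 (chr13:53205205-53205504) TCF and LEF, RUNX and E-box matches.
p1: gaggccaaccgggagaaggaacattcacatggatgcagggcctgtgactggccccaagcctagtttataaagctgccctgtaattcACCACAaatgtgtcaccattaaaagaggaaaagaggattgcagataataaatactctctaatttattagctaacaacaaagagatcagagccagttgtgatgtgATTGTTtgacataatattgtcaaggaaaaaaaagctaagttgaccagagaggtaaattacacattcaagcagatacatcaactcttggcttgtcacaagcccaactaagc
p4: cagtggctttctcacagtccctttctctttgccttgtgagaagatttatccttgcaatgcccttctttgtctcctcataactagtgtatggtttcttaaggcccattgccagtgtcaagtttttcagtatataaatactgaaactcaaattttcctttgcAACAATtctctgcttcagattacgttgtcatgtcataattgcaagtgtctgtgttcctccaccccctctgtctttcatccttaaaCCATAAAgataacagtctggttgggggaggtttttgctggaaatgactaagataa
p5: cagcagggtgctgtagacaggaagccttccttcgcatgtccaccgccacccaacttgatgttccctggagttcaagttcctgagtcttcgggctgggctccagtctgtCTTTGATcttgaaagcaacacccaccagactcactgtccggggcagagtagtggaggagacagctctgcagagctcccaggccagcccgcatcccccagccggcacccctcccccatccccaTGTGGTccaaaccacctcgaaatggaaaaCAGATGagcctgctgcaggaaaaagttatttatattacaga

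Among the other peaks of this group, p3 lies 48089 bases from the start of *Bmp6*, a BMP ligand gene, and stood at 4.76 times (3.25 to 6.82), with 177 fragments in the rest and 37 in the members. Peak p12, nearest to *Zmiz1*, was as open in another set, at 48.6 FPM in the members, 48.9 in the surface and 44.8 in the contractile set. *Coro2b*, an actin-binding protein gene with p6 in an intron, was the other gene besides *Ror2* called higher in RNA, at 26.7 against 11.3 CPM. With 197 fragments in the rest, p6 too met the minimum only with the members' own. The remaining nearest genes, *Erc2*, *Nuak1*, *Slc30a5*, *Slc16a7*, *Top1* and *Zmiz1*, were in neither class, and *A830018L16Rik*, nearest to p4, was lower. Open chromatin and RNA of the nearest gene thus went together at few of the leading peaks. Among peaks with at least 60 fragments in the members the ratios were smaller, led by an *Arap1* intron at 1.84 times (1.42 to 2.36), and included the start of *Gas1* at 1.60 times (1.23 to 2.06).

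**Figure D4:**
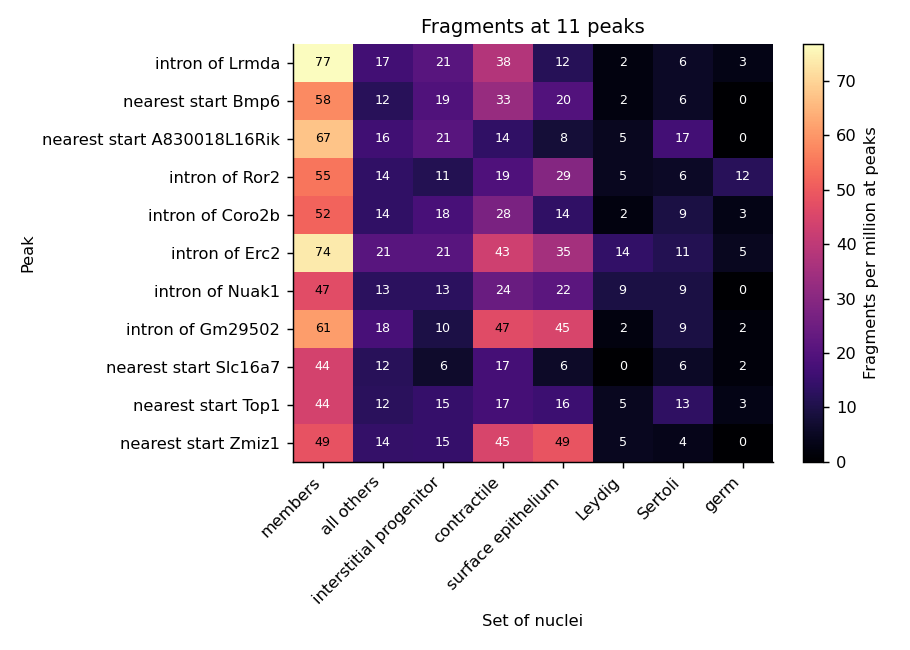
Heat map of fragments in FPM, printed in each cell, at 11 of the leading peaks, in the members, all other kept nuclei and 6 other sets, 1 library. Peak p1 stands at 76.8 in the members and 37.9 in the contractile set, and the *Ror2* intron, p5, at 54.9 in the members and 29.3 in the surface set.

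Motifs were searched on both strands in the central 300 bases of 209 distal peaks higher in the members and of 4812 distal peaks tested, over 24 motifs. The 209 come from the 278 higher peaks, of which 84 met the fragment minimum only with the members' own fragments. Those 84 were not left out, so the motif shares are a description. The PBX-HOX motif (TGATTTAT) was found in 12 of 209 (5.74%, exact binomial interval 3.002 to 9.82%) and in 85 of 4812 (1.77%, 1.41 to 2.18%). The posterior HOX motif (TTTATGG), which can overlap it, was found in 7.18% (4.07 to 11.6%) and 3.66%, and in 6.11% and 5.99% of distal peaks higher in interstitial progenitors and in the contractile set. Distal peaks higher in the contractile set held PBX-HOX in 6.91%, those of the surface set in 4.12%, of interstitial progenitors in 3.33%, of Leydig in 0.662% and of Sertoli in 0 of 161. The GC content was 51.7% in the members' peaks and 55% in all, and among peaks within the same range of GC, 47 to 56.7%, PBX-HOX was found in 5 of 115 (4.35%, 1.43 to 9.86%) and in 1.90%, and posterior HOX in 5.22% (1.94 to 11.01%) and 3.855%. There both intervals held the background share.

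MEIS (TGACAG) was found in 19.1% against 17.8%, TEAD (GGAATG) in 23.0% against 19.8%, the E-box CAGCTG in 37.8% against 39.3%, the E-box CAGATG in 32.5% against 27.8%, and RUNX (TGTGGT) in 18.7% against 15.7%. For MEIS, TEAD, RUNX and both E-boxes the intervals held the share over all distal peaks tested. In the central 500 bases the interval of CAGATG did not, at 48.3% (41.4 to 55.3%) against 39.2%, with 53.3% in peaks of interstitial progenitors and 44.7% in those of the contractile set. Posterior HOX was there at 9.09% (5.56 to 13.8%) against 5.82%, an interval that held the background. SOX (AACAAT) was found in 8.13% against 8.21%, TCF and LEF (CTTTGAT) in 4.31% against 2.76% and the nuclear receptor motif AGGTCA in 21.1% against 21.4%. The search covers letters only, and a match in a peak says nothing about binding.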

How the data were processed

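Nuclei of E14.5 testes were profiled by 10x multiome. The authors ran Cell Ranger ARC 2.0.1 on mm10 with default settings and deposited raw counts, UMIs per gene and cuts per peak, with a fragment list of unique fragments, before filters for quality, doublets or ambient RNA. No normalization was applied to the deposited counts. Free RNA was not removed here. UMIs were summed per set and divided by the set total (CPM). Fragments overlapping each peak were counted from the fragment list and divided by all such pairs, 637970 in the members and 14533481 in the rest. Levels have exact Poisson intervals and ratios exact conditional binomial (Clopper-Pearson) intervals, at 95%. Genes needed 500 UMIs, or 100 over a pair of sets, and peaks 200 fragments, and calls used a fold of 2 after adding 1. An expected 8.41 fragments in the members at that minimum limits the peaks.

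Chromatin neighbours used TF-IDF of cuts and 30 components, of which 1 was left out for its correlation of 0.948 with log10 depth. Doublets were ranked with Scrublet in scanpy 1.11.5. Sequences and gene positions come from GRCm38 and its GENCODE annotation. Scripts ran in Python 3.11.15 with pysam 0.24.0. Only the gene calls and their ratio intervals were tested on simulated counts. The members, gene lists and markers were chosen with earlier results of these data known. Named genes were the 7 markers, the 20 genes of highest ratio at 50 CPM or more, the 8 highest and 8 lowest against each of 3 sets, and called or abundant genes of each list. *Tcf21*, *Ntf3*, *Col4a1*, *Wnt5a* and the leading promoters were added after their values were seen. Some items are not reported here.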

Additional observations from a re-analysis of the deposited data

How the results depend on the processing

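Of 78 values recomputed under alternatives, 53 stayed within their limits and 25 moved. For counts the limit was a factor of 1.5 either way, which is no statistical interval. For shares it was the 95% interval of the main value, and that of the neighbour share took members as independent draws. The share of members among chromatin neighbours was 57.1% with the first 250 nuclei as members and 59.3% with the ranking on thinned UMIs. With the first 500 nuclei, 180 peaks were higher and 418 lower, and promoter and body agreement were 14.2% and 21.3%. Peaks higher and lower were 119 and 371 at stricter quality (mitochondrial genes under 5% and over 1000 cuts), 166 and 601 without nuclei over 20000 UMIs, 1585 and 4368 at 100 fragments, 6 and 37 at 500 fragments, and 21 and 238 at a fold of 3, where PBX-HOX was in 0 of 18 distal peaks. The number of peaks therefore depends on the fragment minimum, the fold, the quality limits and the choice of nuclei. Genes higher and lower were 557 and 2078 at 100 UMIs, 211 and 588 at 2000 UMIs, 675 and 2228 without a filter, and 161 and 617 at a fold of 3. Of 1393 ratios of 199 named genes over 7 settings, 906 stayed within the main interval, 482 left it, and 5 crossed 1. These were *Myh11* (1.03 with the first 500 nuclei and 1.11 with thinned ranking), *Caln1* (1.01 with the first 500), and *Mrc1* (1.21 with thinned ranking and 1.14 at stricter quality), and the cause was not tested. The 20 leading genes stayed between 5.19 and 22.1 times the rest. The 12 leading peaks kept ratios of 2.34 or more, and 71 of 72 stayed within their interval. The gene body comparison and the leading peaks were added after the data were seen.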
